A study of Homo sapiens with 66 samples.

Results

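NCP26 and carfilzomib, agents that act on the synthesis and on the destruction of proteins, were compared directly in one human multiple myeloma cell line. AMO1 cells, an established plasma cell line, were exposed for 6 h to NCP26, an inhibitor of the prolyl-tRNA synthetase, or to carfilzomib, an inhibitor of the proteasome. The 3 libraries titled for NCP26 at 6 h and the 3 titled for carfilzomib at 6 h were taken, 6 of the 66 libraries of the series, which holds 22 groups of 3. The cells of both groups were labelled as the wild-type line. NCP26 was given at 1 µM by the labels. The labels give no dose for carfilzomib, and the text of the study gives one that is lower than that of NCP26, so the agents were compared at the doses used and not at matched doses or matched toxicity. The 3 DMSO libraries of the same cells and time were the solvent control. Cell lysates of the 6 h samples were frozen overnight before RNA was extracted, and polyadenylated RNA was sequenced. The methods of the study describe its replicates in general as biological triplicates. The labels do not say whether the 3 libraries of a group came from separate cultures, so the p-values measure the spread between these libraries.

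Prolyl-tRNA synthetase, one of the activities of the bifunctional enzyme encoded by EPRS1, charges proline onto its tRNAs. When it is blocked, uncharged tRNA can activate the kinase GCN2, which phosphorylates the initiation factor eIF2 alpha, lowers translation in general and favours translation of the transcription factor ATF4, the head of the amino acid arm of the integrated stress response. The proteasome degrades ubiquitin-tagged proteins, and its inhibition is known to raise unfolded protein in the cytosol and the endoplasmic reticulum. The transcription factor HSF1 then drives chaperone genes, NRF1 (NFE2L1) drives proteasome subunit genes, NRF2 drives oxidative stress genes, and ATF4 can be reached through other eIF2 alpha kinases. Plasma cells make large amounts of immunoglobulin and are known for their sensitivity to both kinds of stress.

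The 6 libraries held 2500293 to 2941268 counts with NCP26 and 3095344 to 3790298 with carfilzomib, and the 3 DMSO libraries held 2913987 to 3183765. Levels are given below as CPM, counts scaled to the size of the library, after TMM normalisation in edgeR over the 18 AMO1 libraries of 6 h. The log2 CPM of replicate libraries correlated at 0.970 to 0.986 across genes, which are not independent replicates, and 0 of the files were identical. The plasma cell genes SDC1, IRF4, PRDM1, XBP1, MZB1 and POU2AF1 were counted in all 9 libraries, and the summed CPM of each list of T cell, monocyte, stromal, red cell or mature B cell markers was at most 5.63. As RNA was taken in bulk, fewer cells with a transcript and less of it per cell cannot be told apart.

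Some libraries stood apart from their replicates. NCP26 replicate 1 had at least 1 count for 15581 genes, against 13196 to 13636 in the other libraries of the 3 groups. The variance of its counts about those of NCP26 replicates 2 and 3 was 7.95 and 7.48 times the Poisson variance. For the other replicate pairs this ratio of variances was 1.54 to 3.36. The 8535 genes under 1 CPM in DMSO summed to 4968, 1427 and 1925 CPM in the NCP26 libraries and to 1236 to 2242 CPM with carfilzomib. In addition, 38 genes on 18 chromosomes moved together between replicates. They were chosen after their values were seen, as the genes of at least 3 CPM whose log2 deviations from the group medians correlated above 0.9 with those of OR1N1, an olfactory receptor gene, over the 18 libraries, and which spanned more than 1 log2 unit among the NCP26 libraries. Their summed CPM was 5531, 1199 and 6574 with NCP26, 1255, 1272 and 1454 with carfilzomib and 3298, 1231 and 1237 with DMSO. NCP26 replicates 1 and 3 and DMSO replicate 1 were high, and NCP26 replicate 2 lay below all 3 carfilzomib libraries. Of the 38 genes, 36 could be tested and 35 were called higher with NCP26, where 20.2% of all tested genes were. They were chosen for a wide span among the NCP26 libraries and for moving with OR1N1, which was high in NCP26 replicates 1 and 3. The higher direction was therefore favoured in advance, and the count is a description only. What moved these genes was not tested, and they are named as such where they appear below.

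**Figure D1:**
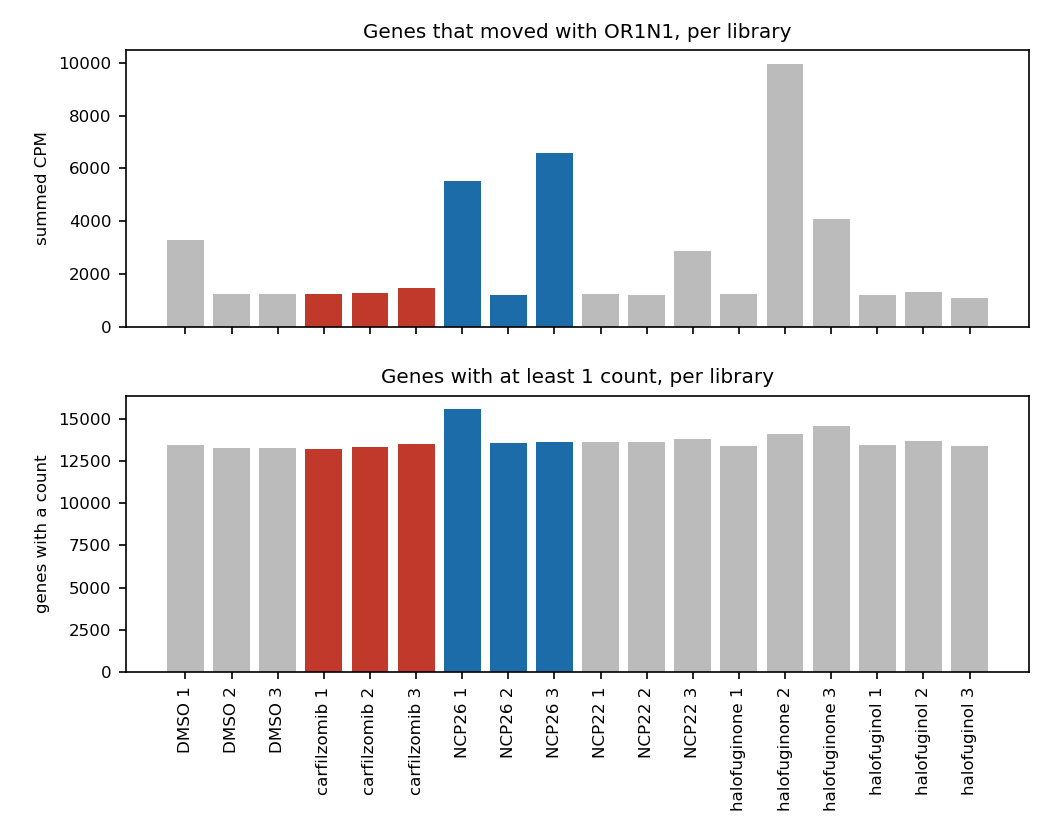
Bars give, for each of the 18 AMO1 libraries of 6 h, the summed CPM of the 38 genes that moved with OR1N1 (upper axis) and the number of genes with at least 1 count (lower axis), with NCP26 and carfilzomib in colour and the other groups in grey. NCP26 replicates 1 and 3 reach 5531 and 6574 CPM while replicate 2 is at 1199, and NCP26 replicate 1 has a count for 15581 genes.

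Genes were called throughout by the quasi-likelihood test of edgeR, with p-values adjusted after Benjamini and Hochberg over all tested genes and a threshold of 0.05. Positive log2 fold changes are higher with NCP26. Of 10591 genes tested, 4444 were called, which is 42%, with 2137 (20.2%) higher and 2307 (21.8%) lower with NCP26. These shares are the background for the counts of every list in the direct contrast below. A 2-fold difference was passed by 451 of the higher genes (4.26%) and by 290 of the lower genes (2.74%). The median log2 fold change of all tested genes was 0.00. Without NCP26 replicate 1, 4952 genes were called. In all, 2839 genes (26.8%) had all NCP26 libraries above all carfilzomib libraries, and 2655 (25.1%) had all of them below. For 9900 of the tested genes every library of both groups stood at or above the minimum level of 3.31 CPM, 364 reached it in all libraries of NCP26 alone and 159 in all libraries of carfilzomib alone. Against DMSO, 3975 of 10666 genes (37.3%) were called with NCP26, 18.1% higher and 19.2% lower, and 2820 of 10470 (26.9%) with carfilzomib, 14.1% higher and 12.8% lower. Counts of lists against DMSO have these shares as their background. These comparisons share libraries with one another and with the direct contrast, and their values are given side by side.

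Heat shock genes had the largest median difference of the lists examined. Of 29 tested heat shock genes under HSF1, 27 were lower with NCP26, where 21.8% of all tested genes were, and 1 was higher. Their median log2 fold change was -2.83, and in 28 of them all NCP26 libraries lay below all carfilzomib libraries, where 25.1% of all tested genes did. Their summed level was 5617 to 5869 CPM with NCP26, 62214 to 64409 CPM with carfilzomib and 8909 to 9225 CPM with DMSO. Carfilzomib raised 26 of them against DMSO (median log2 fold change 2.05), where 14.1% of all genes were raised. NCP26 lowered 15 and raised 2 (median -0.31), where 19.2% and 18.1% of all genes were. For 1 of the 29 the carfilzomib libraries alone all reached the filter's minimum level, so for this gene the filter favoured the lower direction. Without the count filter 26 of 30 heat shock genes were lower with NCP26 and 0 higher.

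The inducible HSP70 gene HSPA1B (ENSG00000204388, chromosome 6) was counted at 58.2, 57.6 and 61.9 CPM with NCP26, 8385, 7917 and 8411 CPM with carfilzomib and 94.4, 110.0 and 110.2 CPM with DMSO. It was 139-fold higher with carfilzomib than with NCP26 (log2 fold change -7.14, SE 0.10, adjusted p = 1.85e-13), and against DMSO its log2 fold change was -0.85 (SE 0.11) with NCP26 and 6.29 (SE 0.07) with carfilzomib. The groups lay far apart, with the NCP26 libraries below every DMSO library. However, 74.5% of the 31-base words of HSPA1B transcripts also occur in other genes, so reads may have been divided among them. DNAJB1, an HSP40 cochaperone of HSP70, stood at 48.6, 47.7 and 48.04 CPM with NCP26, 3456, 3325 and 3425 CPM with carfilzomib and 81.6, 89 and 83.2 CPM with DMSO (log2 fold change -6.17, SE 0.10, adjusted p = 4.92e-13). The strictly stress-inducible HSPA6 (ENSG00000173110, chromosome 1), which is not on the list, was low outside the carfilzomib libraries, at 4.24, 4.33 and 4.51 CPM with NCP26, 1757, 1821 and 1827 CPM with carfilzomib and 3.20, 5.08 and 5.53 CPM with DMSO (log2 fold change -8.70, SE 0.13, adjusted p = 1.85e-13), with 57.1% of its 31-base words shared. BAG3, which links HSP70 to autophagy, read 16.96, 21.98 and 24.5 CPM with NCP26 and 1124, 1055 and 1029.5 CPM with carfilzomib (log2 fold change -5.68, SE 0.14, adjusted p = 1.25e-11).

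HSPA8, the constitutive HSP70, differed from DMSO in opposite directions, at 461, 458 and 443 CPM with NCP26, 9734, 9366 and 9845 CPM with carfilzomib and 1760.2, 1776 and 1647 CPM with DMSO. Its log2 fold change was -4.44 (SE 0.09) between the agents, -1.95 (SE 0.10) for NCP26 and 2.48 (SE 0.05) for carfilzomib against DMSO, all called. HSP90AA1, the inducible HSP90, was counted at 876, 841 and 758 CPM with NCP26, 17072, 16492 and 16709 CPM with carfilzomib and 930.2, 992 and 1039 CPM with DMSO (log2 fold change -4.37, SE 0.09, adjusted p = 4.18e-12). HSPH1, an HSP70 exchange factor (log2 fold change -4.51, SE 0.10), and SERPINH1, the collagen chaperone of the endoplasmic reticulum (-3.79, SE 0.11), were also among the 12 genes lowest with NCP26. The single heat shock gene that was higher with NCP26 was HSF2, a heat shock transcription factor, at 33.5, 31.6 and 25.5 CPM with NCP26 and 21.01, 22.5 and 23 CPM with carfilzomib (log2 fold change 0.41, SE 0.15, adjusted p = 0.0433). Its call was lost without any 1 of the carfilzomib libraries or NCP26 replicates 1 or 2 (adjusted p 0.0875 to 0.126) and in other settings (0.0554 to 0.276). DNAJB2, named after its value was seen, was the 1 tested member that was not called.

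**Figure D2:**
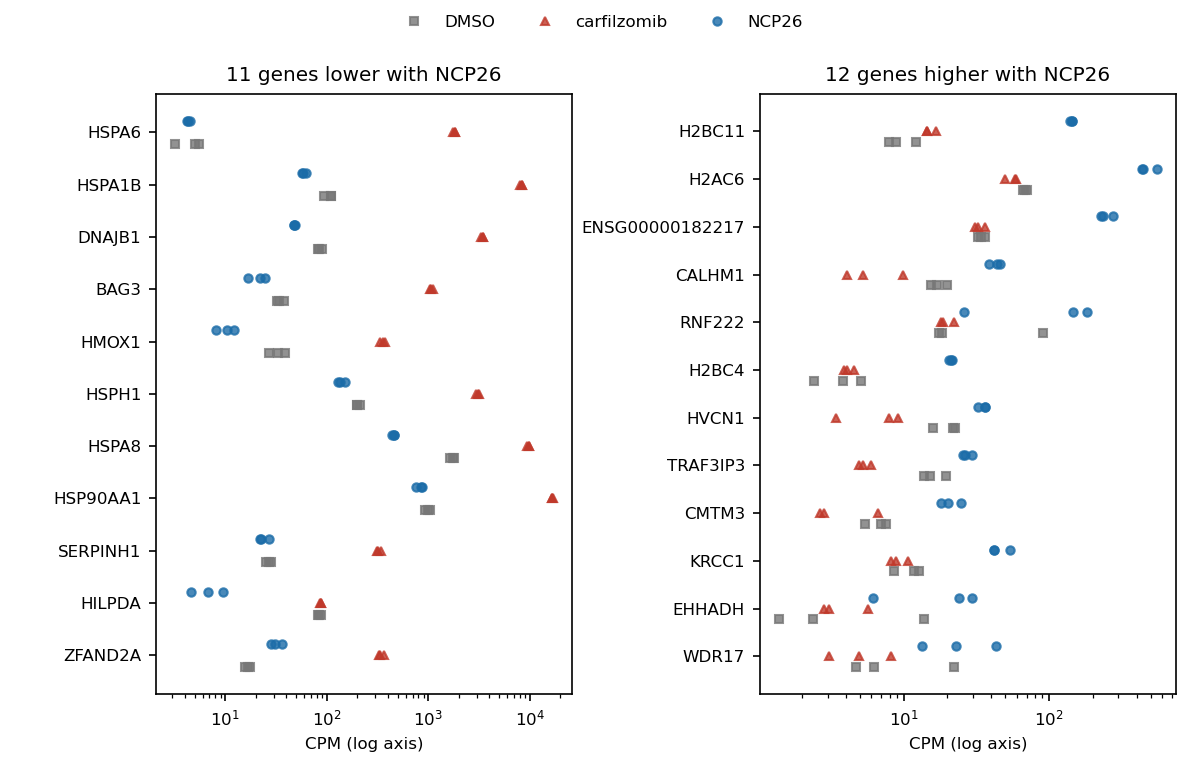
Points give the CPM, on a log axis, of each of the 3 libraries with DMSO (squares), carfilzomib (triangles) and NCP26 (circles) for 11 of the 12 genes with the largest difference toward carfilzomib and the 12 with the largest toward NCP26. Among the lower genes carfilzomib stands apart from both other groups for the heat shock genes, whereas for HILPDA it is NCP26 that does, and among the higher genes RNF222, EHHADH and WDR17 show a wide spread among the NCP26 libraries.

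HSF1 is known to bind heat shock elements, inverted repeats of GAA, in promoters of heat shock genes. As this list had the largest differences, promoter sequences are shown for some of its genes that hold the letters marked below. They are RefSeq sequences of GRCh38.p14, the 250 bases before the transcription start, read 5′ to 3′ on the gene's strand. Capitals mark every match, on either strand, to GAANNTTC or TTCNNGAA, a pair of alternating repeat units.
HSPA1B (chr6:31827488-31827737, + strand): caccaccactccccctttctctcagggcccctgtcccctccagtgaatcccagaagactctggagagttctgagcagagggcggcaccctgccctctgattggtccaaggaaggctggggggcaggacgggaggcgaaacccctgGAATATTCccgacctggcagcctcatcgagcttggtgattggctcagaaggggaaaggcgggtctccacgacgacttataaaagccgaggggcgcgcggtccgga
DNAJB1 (chr19:14518398-14518647, - strand): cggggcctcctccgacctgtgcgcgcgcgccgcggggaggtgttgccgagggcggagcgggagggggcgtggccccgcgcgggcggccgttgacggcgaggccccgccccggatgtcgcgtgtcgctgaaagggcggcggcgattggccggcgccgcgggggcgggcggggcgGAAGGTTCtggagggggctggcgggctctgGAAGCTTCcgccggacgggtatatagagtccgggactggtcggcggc
HSPA8 (chr11:123062137-123062386, - strand): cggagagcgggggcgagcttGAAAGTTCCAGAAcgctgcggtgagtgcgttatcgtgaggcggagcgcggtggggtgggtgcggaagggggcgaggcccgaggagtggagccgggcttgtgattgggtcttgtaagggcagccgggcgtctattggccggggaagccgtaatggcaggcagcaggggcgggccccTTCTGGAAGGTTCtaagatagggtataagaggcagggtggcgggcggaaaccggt
CHORDC1 (chr11:90223050-90223299, - strand): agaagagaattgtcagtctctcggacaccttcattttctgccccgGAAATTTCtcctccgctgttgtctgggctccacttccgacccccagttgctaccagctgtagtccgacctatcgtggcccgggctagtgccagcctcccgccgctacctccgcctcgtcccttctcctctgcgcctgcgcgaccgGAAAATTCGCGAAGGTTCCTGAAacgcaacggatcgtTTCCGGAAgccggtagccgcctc

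Matches numbered 1 in HSPA1B, 2 in DNAJB1, 4 in HSPA8 and 6 in CHORDC1, which encodes an HSP90 cochaperone, with overlapping matches counted each. BAG3 and HSPH1, which differed more than HSPA8 between the agents on the log2 scale, held 0 matches in this window. Promoters of 25 tested heat shock genes were found by symbol, and 14 of these genes (56.0%) held such a pair. This compares with 13.96% of all 27305 genes with a promoter and 11.7% of the 8618 tested ones. Here and below, shares of promoters are by gene, and a gene held the letters if any of its promoters did. The longer element of 3 units, GAANNTTCNNGAA, which contains the pair, stood in 7 of the 25 (28%), against 0.557% of all promoters and 0.429% of those of tested genes. No match says only that these letters are missing from this window, and a match is a description of sequence and not of binding.

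Genes of the proteasome and of the ubiquitin pathway were mostly lower with NCP26 than with carfilzomib, by smaller factors. Of 35 tested subunits of the proteasome, 30 were lower and 1 higher with NCP26 (median log2 fold change -0.64), where 21.8% and 20.2% of all tested genes were. Against DMSO, carfilzomib raised 29 and lowered 1 (median 0.54), where 14.1% and 12.8% of all genes were raised and lowered. NCP26 raised 1 and lowered 8 (median -0.13), where 18.1% and 19.2% of all genes were. PSMB5, the chymotrypsin-like subunit that carfilzomib binds, was counted at 74.8, 58.5 and 70.6 CPM with NCP26, 116, 117 and 115 CPM with carfilzomib and 77.4, 90.02 and 79.4 CPM with DMSO (log2 fold change -0.80, SE 0.11, adjusted p = 9.85e-05), without overlap between the agents. PSMC4, an ATPase of the 19S cap, stood at 109, 103 and 104 CPM with NCP26, 305, 316 and 342 CPM with carfilzomib and 149, 143 and 135 CPM with DMSO (log2 fold change -1.63, SE 0.09, adjusted p = 5.54e-08), and had the most negative fold change among the subunits. PSMD2 (-1.18, SE 0.10), PSMD12 (-1.13, SE 0.09) and PSMD6 (-1.05, SE 0.10), non-ATPase subunits of the cap, followed on the log2 scale. PSMB9, a subunit of the immunoproteasome, was the exception, at 114, 102 and 99.3 CPM with NCP26 and 79.1, 72.2 and 94.5 CPM with carfilzomib (log2 fold change 0.33, SE 0.11, adjusted p = 0.035), and carfilzomib lowered it against DMSO (-0.33, SE 0.10). The call of PSMB9 was lost without carfilzomib replicate 1 or 2 (adjusted p 0.126 and 0.167) and with the Wald test of DESeq2 (0.0684).

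Of 20 tested assembly factors and activators of the proteasome, 7 were lower and 2 higher with NCP26, where 21.8% and 20.2% of all tested genes were. The median of 0.06 turned to -0.05 when GC content was corrected for and to -0.00 without NCP26 replicate 1. The lower ones numbered 4 without carfilzomib replicate 1, carfilzomib replicate 2 or NCP26 replicate 3. Among those called with all libraries were the maturation factor POMP (-0.56, SE 0.15) and the proteasome-bound deubiquitinase USP14 (-0.69, SE 0.08). NFE2L1, which encodes the NRF1 factor of the subunit genes, was higher with NCP26, at 554, 725 and 740.2 CPM with NCP26, 440.0, 419 and 432 CPM with carfilzomib and 345, 344 and 332 CPM with DMSO (log2 fold change 0.62, SE 0.11, adjusted p = 0.000864), and both agents raised it against DMSO. The deubiquitinase UCHL5 was the other one (0.58, SE 0.10). In the ubiquitin and p97 pathway 19 of 29 tested genes were lower and 2 higher (median -0.38). UBB, which encodes ubiquitin (-1.61, SE 0.10), VCP, which encodes the p97 unfoldase (-1.68, SE 0.10), and ZFAND2A, a p97 and proteasome adaptor under HSF1 (-3.46, SE 0.11), were lower. ZFAND2A nevertheless rose against DMSO with both agents, by 0.90 (SE 0.16) with NCP26 and 4.36 (SE 0.10) with carfilzomib. The deubiquitinase USP9X (0.78, SE 0.10) and the E2 enzyme UBE2S (0.42, SE 0.12) were higher with NCP26, the call of UBE2S being lost without carfilzomib replicate 1 or 3 (adjusted p 0.0807 and 0.0834). Of the 35 subunits 30 had a promoter sequence, and the letters TGACNNNGC of an antioxidant response element stood in 7 (23.3%), against 13.2% of all promoters and 15.96% of those of tested genes, on either strand. The share was 24.0% for heat shock genes, 22.6% for ATF4 targets and 28.6% for NRF2 genes. It was 42.9% for the ubiquitin and p97 pathway and 15.4% for endoplasmic reticulum genes, so it was not particular to the subunits.

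Oxidative stress genes showed the same order of agents. Of 21 tested genes of the NRF2 list, 19 were lower with NCP26 and 0 higher (median log2 fold change -1.28). For 1 of the 21 the carfilzomib libraries alone all reached the filter's minimum level. Against DMSO, carfilzomib raised 17 and lowered 0, where 14.1% and 12.8% of all genes were raised and lowered. NCP26 raised 3 and lowered 12, where 18.1% and 19.2% of all genes were. HMOX1, which encodes haem oxygenase, was counted at 8.10, 12.1 and 10.3 CPM with NCP26, 333, 355 and 379 CPM with carfilzomib and 26.9, 38.9 and 33.2 CPM with DMSO (log2 fold change -5.13, SE 0.13, adjusted p = 2.07e-11). All NCP26 libraries lay below all DMSO libraries and all carfilzomib libraries above them, with log2 fold changes against DMSO of -1.70 (SE 0.19) and 3.43 (SE 0.10). SRXN1, a sulfiredoxin (-2.95, SE 0.09, with 90.6% of its 31-base words shared with other genes), FTL, the ferritin light chain (-2.30, SE 0.10), and PRDX1, a peroxiredoxin (-2.11, SE 0.12), were lower with NCP26. SQSTM1, the autophagy receptor p62, was raised by both agents against DMSO (0.58, SE 0.10 with NCP26 and 2.12, SE 0.05 with carfilzomib) and was lower with NCP26, at 1056, 1189 and 1252 CPM with NCP26 and 3279, 3197 and 3510.0 CPM with carfilzomib (log2 fold change -1.54, SE 0.09, adjusted p = 1.4e-07). Of 20 tested autophagy genes 8 were lower and 2 higher (median -0.24), where 21.8% and 20.2% of all tested genes were. GABARAPL1, an ATG8 family member, stood at -0.96 (SE 0.12) and TFEB, a transcription factor of lysosomal genes, at 0.70 (SE 0.13). Metallothionein genes were all under the filter, so 0 of 8 were tested.

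In the endoplasmic reticulum, 24 of 30 tested chaperone and degradation genes were lower with NCP26 and 0 higher (median -0.59). Carfilzomib raised 22 of them against DMSO and lowered 0, where 14.1% and 12.8% of all genes were raised and lowered. NCP26 raised 3 and lowered 13, where 18.1% and 19.2% of all genes were. HSPA5, which encodes the chaperone BiP, was counted at 695, 749 and 728 CPM with NCP26, 3594, 3621 and 3677 CPM with carfilzomib and 1191, 1240.3 and 1216 CPM with DMSO (log2 fold change -2.35, SE 0.08, adjusted p = 8.03e-10), with the DMSO libraries between the agents. HYOU1 (-1.53, SE 0.12) and CRELD2 (-1.51, SE 0.13), other genes of the unfolded protein response, had the same order. DERL3, a degradation factor of secretory cells, was different: it stood at 30.5, 26.3 and 28.05 CPM with NCP26, 82.5, 67.2 and 67.7 CPM with carfilzomib and 81.2, 71.4 and 68.7 CPM with DMSO (log2 fold change -1.38, SE 0.13, adjusted p = 5.72e-06), and was called against DMSO with NCP26 (-1.41, SE 0.12) but not with carfilzomib (-0.04, SE 0.10). Of 14 tested genes of the TRiC chaperonin and prefoldin, which fold actin and tubulin, 10 were lower and 0 higher (median -0.66), led by TCP1 (-1.60, SE 0.09). Among the tubulins and tubulin cofactors, 11 of 15 were lower and 0 higher (median -1.01). For 2 of them the carfilzomib libraries alone all reached the filter's minimum level. TUBA1C, an alpha tubulin, was counted at 131, 97.8 and 105 CPM with NCP26, 448, 467 and 483 CPM with carfilzomib and 273, 271 and 243 CPM with DMSO (log2 fold change -2.09, SE 0.12, adjusted p = 8.01e-08), the NCP26 libraries lying below DMSO and the carfilzomib libraries above.

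Most ATF4 targets rose against DMSO with each agent, and between the agents they were called in both directions. Against DMSO, NCP26 raised 26 and lowered 3 (median log2 fold change 0.77), where 18.1% and 19.2% of all genes were raised and lowered. Carfilzomib raised 31 and lowered 0 (median 0.75), where 14.1% and 12.8% of all genes were. These comparisons share the DMSO libraries. In the direct contrast 10 of 38 tested targets were higher with NCP26, 15 lower and 13 not called (median -0.14, or -0.07 without NCP26 replicate 1 and -0.02 with a GC correction), where 20.2% of all tested genes were higher and 21.8% lower. Leaving out 1 library gave 8 to 11 higher and 10 to 13 lower, and the Wald test of DESeq2 gave 8 and 12. For 1 of the 38 the NCP26 libraries alone all reached the filter's minimum level, and for 1 the carfilzomib libraries alone. The classical targets ASNS, DDIT3 and TRIB3, named here after their values were seen, rose with both agents against DMSO. ASNS, asparagine synthetase, was counted at 251, 244 and 248 CPM with NCP26, 222, 220.0 and 227 CPM with carfilzomib and 129.5, 129 and 130.2 CPM with DMSO (log2 fold change 0.12, SE 0.08, adjusted p = 0.231). DDIT3, which encodes the death-promoting factor CHOP, stood at 302, 265 and 268 CPM with NCP26, 245, 231 and 258 CPM with carfilzomib and 77.7, 75.8 and 72.5 CPM with DMSO (log2 fold change 0.16, SE 0.09, adjusted p = 0.179). TRIB3, a pseudokinase that restrains ATF4, read 312, 303 and 301 CPM with NCP26, 298, 294 and 332 CPM with carfilzomib and 110.4, 97.1 and 113 CPM with DMSO (log2 fold change -0.04, SE 0.09, adjusted p = 0.738). For these 3 genes no difference between the agents was called, which does not show that they responded alike, and in ASNS and DDIT3 all NCP26 libraries were above all carfilzomib libraries.

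Other targets differed sharply. STC2, which encodes stanniocalcin 2, was counted at 44.3, 57.9 and 50.6 CPM with NCP26, 12.6, 13.7 and 11.7 CPM with carfilzomib and 15.99, 9.81 and 10.01 CPM with DMSO (log2 fold change 1.99, SE 0.15, adjusted p = 1.4e-06). All NCP26 libraries were above all others, while carfilzomib was not called against DMSO (0.07, SE 0.22, adjusted p = 0.847). CEBPG, a dimer partner of ATF4 (0.71, SE 0.09), INHBE, an inhibin subunit (0.73, SE 0.11), and VLDLR, a lipoprotein receptor (1.00, SE 0.31), were also higher with NCP26. VLDLR reached the filter's minimum level in all libraries with NCP26 only, so the filter favoured that direction, and its call was lost without carfilzomib replicate 2 (adjusted p 0.099) or NCP26 replicate 2 (0.0842). ATF3, a stress-induced transcription factor, was counted at 94.5, 112 and 123 CPM with NCP26, 251, 234 and 246 CPM with carfilzomib and 15.99, 14.6 and 12.1 CPM with DMSO (log2 fold change -1.17, SE 0.10, adjusted p = 3.11e-06), so that both agents raised it, by 2.92 (SE 0.15) with NCP26 and 4.09 (SE 0.11) with carfilzomib against DMSO. PPP1R15A, which encodes the eIF2 alpha phosphatase subunit GADD34, had the same order (-0.89, SE 0.11 between the agents). DDIT4, an inhibitor of the mTOR pathway, moved in opposite directions from DMSO, at 381, 464 and 420.1 CPM with NCP26, 1407, 1353 and 1426 CPM with carfilzomib and 828, 819.6 and 788 CPM with DMSO (log2 fold change -1.75, SE 0.10, adjusted p = 6.63e-08; -0.97, SE 0.10 with NCP26 and 0.78, SE 0.05 with carfilzomib). CHAC1, which degrades glutathione and was likewise named after its values were seen, stood at 18.5, 20.1 and 20.3 CPM with NCP26 and 22.9, 30.3 and 27.4 CPM with carfilzomib (log2 fold change -0.48, SE 0.15, adjusted p = 0.0238).

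**Figure D3:**
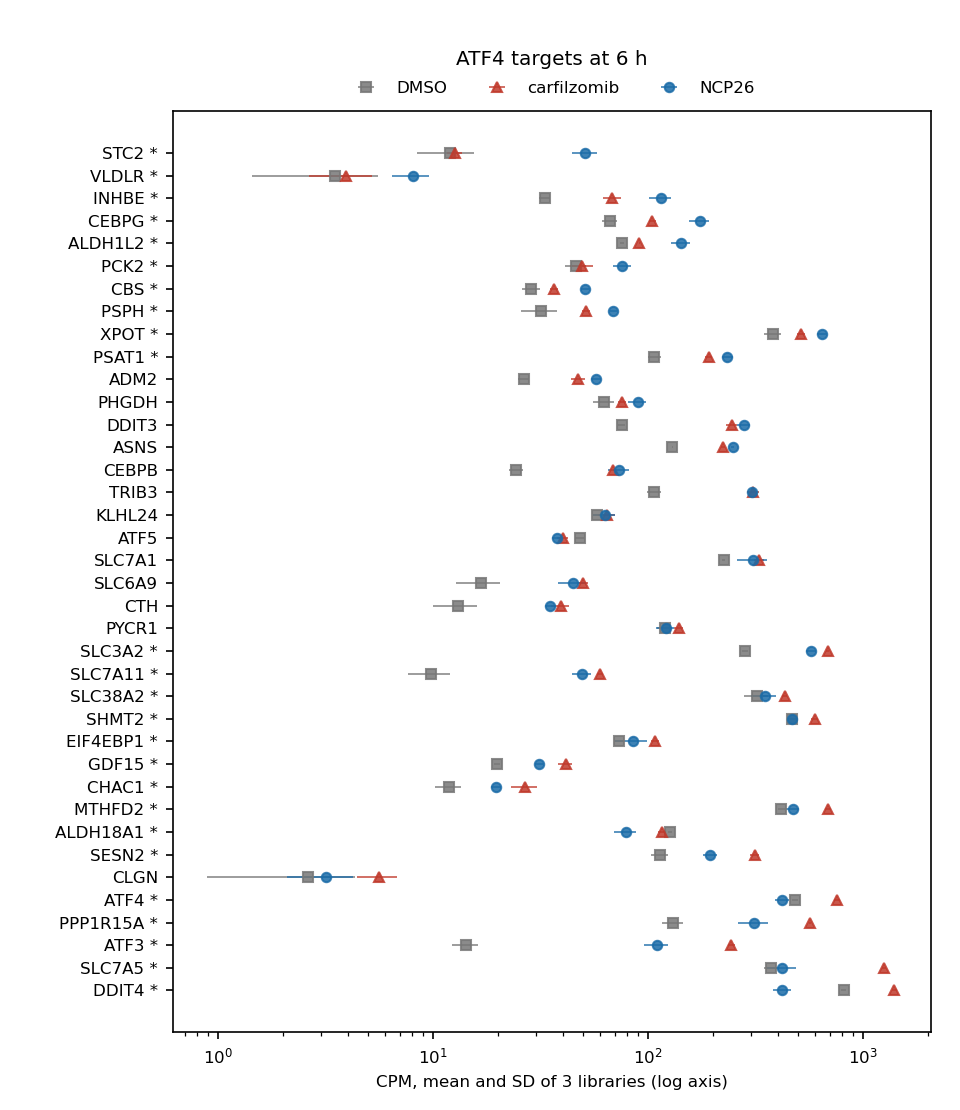
Points give the mean CPM of 3 libraries on a log axis, with bars for the SD, for the 38 tested ATF4 targets with DMSO, carfilzomib and NCP26, ordered by the fold change between the agents, and an asterisk marks a call between them. STC2 lies highest with NCP26 relative to carfilzomib and DDIT4 lowest, and the 13 targets without an asterisk lie between.

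Upstream windows of a pair of ATF4 targets are shown for the element that ATF4 and C/EBP factors share, again as 250 bases of RefSeq GRCh38.p14. Capitals mark TGATGNAA on either strand.
ASNS (chr7:97872409-97872658, - strand): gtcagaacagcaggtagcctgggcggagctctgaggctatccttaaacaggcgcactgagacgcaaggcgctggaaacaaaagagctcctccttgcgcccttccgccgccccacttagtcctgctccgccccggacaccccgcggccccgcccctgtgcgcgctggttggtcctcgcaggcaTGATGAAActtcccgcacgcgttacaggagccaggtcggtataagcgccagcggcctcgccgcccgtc
CHAC1 (chr15:40953221-40953470, + strand): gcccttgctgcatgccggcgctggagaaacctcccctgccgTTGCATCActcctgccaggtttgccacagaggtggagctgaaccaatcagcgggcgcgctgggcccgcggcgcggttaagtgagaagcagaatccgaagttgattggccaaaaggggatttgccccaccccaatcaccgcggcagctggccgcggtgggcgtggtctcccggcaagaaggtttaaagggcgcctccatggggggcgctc

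Each held 1 match. Among the 31 promoters found for tested targets, 4 (12.9%) held these letters, against 3.89% of all promoters and 2.19% of those of tested genes.

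Of 17 tested amino acid transporters 3 were higher and 6 lower, where 20.2% and 21.8% of all tested genes were, and the median of -0.12 turned to 0.01 with a GC correction and read -0.03 without NCP26 replicate 1. The lower ones numbered 2 without carfilzomib replicate 1 and 3 without either of the other carfilzomib libraries. SLC7A5, the light chain of the leucine transporter LAT1, was counted at 346, 438 and 474 CPM with NCP26, 1258, 1226 and 1271 CPM with carfilzomib and 398, 365 and 351 CPM with DMSO (log2 fold change -1.60, SE 0.11, adjusted p = 6.43e-07), and was called against DMSO with carfilzomib (1.75, SE 0.06) but not with NCP26 (0.15, SE 0.12). SLC43A2, a facilitative transporter of neutral amino acids, had the reverse order, at 42.02, 40.9 and 50.6 CPM with NCP26, 12.99, 13.4 and 13.9 CPM with carfilzomib and 28.5, 23.7 and 27.3 CPM with DMSO (log2 fold change 1.701, SE 0.15, adjusted p = 4.36e-06), where NCP26 raised it (0.72, SE 0.14) and carfilzomib lowered it (-0.98, SE 0.16) against DMSO. SLC38A5, a glutamine transporter, was lower with NCP26 (-0.85, SE 0.09).

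EPRS1, which encodes the target of NCP26, was not called between the agents, at 351, 421 and 394 CPM with NCP26, 369, 384 and 364 CPM with carfilzomib and 297, 314 and 326 CPM with DMSO (log2 fold change 0.03, SE 0.09, adjusted p = 0.781), and both raised it against DMSO (0.29, SE 0.10 and 0.25, SE 0.06). Of 23 tested cytosolic synthetase genes 3 were higher and 6 lower, where 20.2% and 21.8% of all tested genes were. Their median of 0.03 turned to -0.07 with a GC correction, to -0.00 without carfilzomib replicate 1 and to -0.02 without NCP26 replicate 2. Without NCP26 replicate 3, 5 were higher. AARS1, the alanyl enzyme, was higher with NCP26 at 485, 599 and 669.9 CPM with NCP26 and 383, 360.4 and 374 CPM with carfilzomib (log2 fold change 0.62, SE 0.11, adjusted p = 0.000906). WARS1, the tryptophanyl enzyme, was lower with NCP26 at 975, 1027 and 1114 CPM with NCP26, 2157, 2069.8 and 2211 CPM with carfilzomib and 814, 772 and 762 CPM with DMSO (log2 fold change -1.07, SE 0.09, adjusted p = 2.61e-06), both agents having raised it. FARSA (-0.64, SE 0.09), QARS1 (-0.56, SE 0.09) and HARS1 (-0.51, SE 0.08), the phenylalanyl, glutaminyl and histidyl enzymes, were lower as well. Of 17 mitochondrial synthetase genes 7 were lower, among them RARS2 (-1.16, SE 0.14) and AARS2 (-0.88, SE 0.16), and PARS2, the prolyl enzyme of mitochondria, named after its value was seen, was not called. The single higher one, NARS2 (2.12, SE 0.50), is among the 38 genes that moved with OR1N1 and read 458, 90.1 and 717 CPM in the NCP26 libraries, so 1 of its 3 libraries stood far below the others. In proline metabolism 5 of 9 tested genes were lower with NCP26 and 0 higher (median -0.50). P4HA2, a prolyl hydroxylase of collagen, was counted at 8.10, 12.4 and 9.67 CPM with NCP26, 51.2, 57.4 and 50.4 CPM with carfilzomib and 23.7, 16.9 and 15.2 CPM with DMSO (log2 fold change -2.40, SE 0.16, adjusted p = 3.83e-07), lowered by NCP26 and raised by carfilzomib against DMSO. ALDH18A1, the first enzyme of proline synthesis, had a log2 fold change of -0.58 (SE 0.10).

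Hypoxia and glycolysis genes were mostly lower with NCP26 than with carfilzomib. Of 28 tested, 25 were lower with NCP26 and 0 higher (median log2 fold change -0.84). Against DMSO, NCP26 lowered 25 and raised 1 (median -0.92), where 19.2% and 18.1% of all genes were lowered and raised. Carfilzomib lowered 13 and raised 5 (median -0.14), where 12.8% and 14.1% of all genes were. HILPDA, a lipid droplet protein induced in hypoxia, was counted at 4.63, 9.60 and 6.77 CPM with NCP26, 85.9, 87.3 and 87.3 CPM with carfilzomib and 87.96, 84.3 and 82.5 CPM with DMSO (log2 fold change -3.62, SE 0.17, adjusted p = 1.2e-08), and was not called between carfilzomib and DMSO (0.03, SE 0.08, adjusted p = 0.83). PFKFB4, a glycolytic regulator, stood at 11.6, 12.1 and 17.4 CPM with NCP26, 58.8, 62.6 and 57.3 CPM with carfilzomib and 108, 99.2 and 104 CPM with DMSO (log2 fold change -2.14, SE 0.15, adjusted p = 8.3e-07), with the NCP26 libraries below all others. NDRG1, a hypoxia marker (-2.20, SE 0.10), and SLC2A1, the glucose transporter GLUT1 (-2.003, SE 0.15), had the same direction.

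Lipid genes followed in part. Of 27 tested genes of sterol and fatty acid synthesis 13 were lower with NCP26, 0 higher and 14 not called (median -0.25). FASN, fatty acid synthase, stood at 80.6, 126 and 142 CPM with NCP26, 403, 421 and 418 CPM with carfilzomib and 483, 466 and 454 CPM with DMSO (log2 fold change -1.85, SE 0.15, adjusted p = 2.62e-06), and INSIG1 (-1.59, SE 0.09) and HMGCS1 (-1.38, SE 0.11), targets of SREBP, were lower too. The NCP26 libraries of FASN overlapped with neither of the other groups.

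Among ribosomal and respiratory genes those called were, but for 1 biogenesis factor, lower with NCP26, and their number depended on single libraries. Of 74 tested genes of cytosolic ribosomal proteins 55 were lower and 0 higher (median -0.52), and all 74 were lower without NCP26 replicate 1 (median -0.72). Leaving out any other library of the agents gave 38 to 50, the fewest without carfilzomib replicate 3. Their summed level was 92013 to 135280.2 CPM with NCP26, 145762 to 160119.8 CPM with carfilzomib and 120079 to 131023 CPM with DMSO. The NCP26 libraries thus ran from below to above the DMSO libraries. Carfilzomib raised 73 of them against DMSO (median 0.29), where 14.1% of all genes were raised. NCP26 lowered 8 (median -0.23), where 19.2% of all genes were lowered. RPS15, a protein of the small subunit, was counted at 858, 603 and 552 CPM with NCP26, 1389, 1338 and 1426 CPM with carfilzomib and 1190.2, 1255 and 1086 CPM with DMSO (log2 fold change -1.07, SE 0.15, adjusted p = 0.000125). Of 48 nuclear genes of the respiratory chain 26 were lower and 0 higher (median -0.34), and 45 without NCP26 replicate 1 (median -0.54) or 17 without carfilzomib replicate 3. NDUFB9 (-1.18, SE 0.12) and NDUFS3 (-1.10, SE 0.14), subunits of complex I, had the most negative values among those named by the rule. Of 13 messenger RNAs encoded by the mitochondrial genome 10 were lower (13 without NCP26 replicate 1, 5 without carfilzomib replicate 1 and 6 without NCP26 replicate 2), with MT-CYB, cytochrome b, at -0.58 (SE 0.12). Of 37 ribosome biogenesis factors 19 were lower and 1 higher (median -0.34), where 21.8% and 20.2% of all tested genes were. RRP12, an export factor of ribosomal subunits, stood at -1.05 (SE 0.11).

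Replication-dependent histone genes stood at the top of the genes higher with NCP26. All 12 tested histone genes were higher (median log2 fold change 2.40), where 20.2% of all tested genes were, and in 12 of them every NCP26 library lay above every carfilzomib library, where 26.8% of all tested genes did. For 4 of them the NCP26 libraries alone reached the filter's minimum level, so for these the filter favoured that direction, and 8 reached it in both groups. Without the count filter 14 of 18 histone genes were higher and 0 lower. NCP26 raised all 12 against DMSO (median 2.54), where 18.1% of all genes were raised. Carfilzomib raised 1 and lowered 1, where 14.1% and 12.8% of all genes were. H2BC11 (ENSG00000124635), an H2B gene of the histone cluster on chromosome 6, was counted at 144, 140.0 and 144 CPM with NCP26, 14.5, 14.4 and 16.7 CPM with carfilzomib and 7.997, 8.80 and 12.1 CPM with DMSO (log2 fold change 3.20, SE 0.11, adjusted p = 5.51e-10). H2AC6, an H2A gene of the same cluster, stood at 553, 439 and 439 CPM with NCP26, 58.4, 59.5 and 49.8 CPM with carfilzomib and 65.9, 71.1 and 68.03 CPM with DMSO (log2 fold change 3.07, SE 0.13, adjusted p = 4.02e-09). In both, every NCP26 library was far above the other groups. Between those, carfilzomib was above DMSO in H2BC11 (0.67, SE 0.21) and below it in H2AC6 (-0.30, SE 0.10), without overlap and both called. H2BC4 (2.31, SE 0.21) and H3C4 (2.91, SE 0.29, with 96.6% of its 31-base words shared with other genes) were higher too. Most messenger RNAs of these genes normally end in a stem-loop in place of a poly(A) tail, and RNA was selected by poly(A), so a higher total level and a larger polyadenylated share cannot be told apart. SLBP, which encodes the stem-loop binding protein of these messages, was lower with NCP26 at 41.6, 40.6 and 38.4 CPM with NCP26, 67.98, 64.4 and 71.2 CPM with carfilzomib and 52.8, 55.8 and 56.6 CPM with DMSO (log2 fold change -0.78, SE 0.10, adjusted p = 0.000105).

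Cell cycle genes were called in both directions, against a background of 20.2% of all tested genes higher and 21.8% lower. Of 36 tested genes of G1/S and replication, 7 were higher with NCP26 and 11 lower (median 0.02), and of 32 G2/M genes 9 were higher and 4 lower (median 0.13). The G1/S counts fell to 4 higher and 7 lower without carfilzomib replicate 1 (median -0.01) and to 4 higher without NCP26 replicate 2. Against DMSO, NCP26 lowered 20 G1/S and 20 G2/M genes and raised 2 and 2, where 19.2% of all genes were lowered and 18.1% raised. Carfilzomib lowered 17 and 26 and raised 2 and 0, where 12.8% of all genes were lowered and 14.1% raised. TOP2A, topoisomerase II alpha, was counted at 197, 235 and 229 CPM with NCP26, 135, 121 and 123 CPM with carfilzomib and 276, 307 and 334 CPM with DMSO (log2 fold change 0.78, SE 0.09, adjusted p = 4.69e-05), lowered by both agents but more by carfilzomib. AURKB, a mitotic kinase (0.92, SE 0.14), and the spindle genes CENPE (1.07, SE 0.16) and HMMR (1.07, SE 0.12) were higher with NCP26, and PTTG1, securin (-0.64, SE 0.15), and CDC25B, a phosphatase at mitotic entry (-0.58, SE 0.12), were lower. CCND1, cyclin D1, read 6.94, 7.12 and 7.74 CPM with NCP26, 2.29, 2.11 and 1.58 CPM with carfilzomib and 6.72, 9.14 and 9.32 CPM with DMSO (log2 fold change 1.83, SE 0.31, adjusted p = 0.000609). It was tested only because the NCP26 libraries reached the filter's minimum level of 3.31 CPM, so the filter favoured that direction. CCND2, cyclin D2, was higher with NCP26 (0.69, SE 0.11), and MCM5, a subunit of the replicative helicase, was lower (-0.73, SE 0.09).

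Among p53 targets 10 of 23 tested genes were lower with NCP26 and 1 higher (median -0.27). CDKN1A, which encodes the cell cycle inhibitor p21, was counted at 66.7, 69.4 and 68.03 CPM with NCP26, 738, 668 and 732 CPM with carfilzomib and 427, 419 and 381 CPM with DMSO (log2 fold change -3.41, SE 0.10, adjusted p = 7.95e-11). The groups were all separate, with DMSO between the agents, and NCP26 lowered the gene (-2.61, SE 0.10) while carfilzomib raised it (0.80, SE 0.06). MDM2, the ubiquitin ligase of p53, stood at 258, 253 and 239 CPM with NCP26, 553, 576 and 508 CPM with carfilzomib and 539, 498 and 575 CPM with DMSO (log2 fold change -1.15, SE 0.09, adjusted p = 2.09e-06) and was called against DMSO with NCP26 (-1.13, SE 0.10) and not with carfilzomib (0.02, SE 0.07). EDA2R, a member of the TNF receptor family, had a log2 fold change of -1.83 (SE 0.18). GADD45B, a stress sensor also under NF-kB, was the single member higher with NCP26, at 205, 191 and 211 CPM with NCP26, 55, 38.7 and 52.9 CPM with carfilzomib and 36.8, 31.5 and 32.5 CPM with DMSO (log2 fold change 2.02, SE 0.12, adjusted p = 1.39e-07). In the BCL2 family with death receptors and caspases, 6 of 27 tested were higher and 5 lower (median 0.00), shares near those of all tested genes (20.2% and 21.8%). The pro-apoptotic BCL2L11, which encodes BIM (-0.61, SE 0.09), BAX (-0.48, SE 0.10) and BID (-0.77, SE 0.11) were lower with NCP26, and the pro-apoptotic BMF was higher (0.86, SE 0.18). The pro-apoptotic HRK was higher too (0.95, adjusted p = 0.03). Its call was lost without carfilzomib replicate 3 (adjusted p 0.139) or NCP26 replicate 3 (0.0866). For 1 of the 27 genes the NCP26 libraries alone all reached the filter's minimum level.

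Of 14 tested NF-kB genes 8 were higher with NCP26 and 2 lower (median 0.30), against 20.2% and 21.8% of all tested genes. These were 6 and 1 without any 1 of the carfilzomib libraries, without NCP26 replicate 3 or with the Wald test of DESeq2, and 8 and 1 without NCP26 replicate 2. Their counts against DMSO were 8 higher and 2 lower with NCP26, where 18.1% and 19.2% of all genes were. With carfilzomib they were 2 higher and 4 lower, where 14.1% and 12.8% of all genes were. NFKB1, which encodes the p105 precursor of p50, was counted at 131, 150.5 and 139 CPM with NCP26, 71.04, 61.9 and 67.4 CPM with carfilzomib and 82.5, 91.03 and 83.9 CPM with DMSO (log2 fold change 1.04, SE 0.09, adjusted p = 4.69e-06). RELB, a subunit of the alternative pathway, stood at 119, 124 and 117 CPM with NCP26, 62.6, 66.9 and 64.6 CPM with carfilzomib and 54.1, 63.3 and 57.7 CPM with DMSO (log2 fold change 0.87, SE 0.09, adjusted p = 1.23e-05), and REL, the c-Rel subunit, had a log2 fold change of 1.62 (SE 0.21). TNIP1, an inhibitor of the pathway, was lower with NCP26 (-0.94, SE 0.08). Immediate early genes went both ways, with 8 of 23 higher and 9 lower (median -0.14, or -0.07 without carfilzomib replicate 1, -0.09 without NCP26 replicate 2 and -0.04 with a GC correction). For 3 of the 23 the NCP26 libraries alone all reached the filter's minimum level, and for 1 the carfilzomib libraries alone. JUN, the AP-1 subunit, was counted at 94.1, 127 and 126 CPM with NCP26, 288, 287 and 303 CPM with carfilzomib and 29.1, 23.4 and 26.9 CPM with DMSO (log2 fold change -1.36, SE 0.11, adjusted p = 1.93e-06), and both agents raised it against DMSO. KLF10, a transcription factor of the TGF beta response, stood at 109, 141 and 119 CPM with NCP26, 45.1, 43.6 and 41.3 CPM with carfilzomib and 68.5, 64.97 and 73.6 CPM with DMSO (log2 fold change 1.48, SE 0.11, adjusted p = 1.12e-06), raised by NCP26 and lowered by carfilzomib. NR4A3, an orphan nuclear receptor, read 6.55, 7.43 and 9.99 CPM with NCP26, 1.15, 1.06 and 0.945 CPM with carfilzomib and 1.60, 1.69 and 3.80 CPM with DMSO (log2 fold change 2.87, SE 0.37, adjusted p = 8.96e-05), and is 1 of the 3 genes tested through the NCP26 libraries, so the filter favoured that direction. DUSP1 (-1.49, SE 0.15) and DUSP2 (-1.74, SE 0.20), phosphatases of MAP kinases, were lower with NCP26. Of 19 tested interferon-stimulated genes 2 were higher and 3 lower, below the shares of all tested genes (20.2% and 21.8%). These were 1 and 5 without NCP26 replicate 1 and 0 and 2 without carfilzomib replicate 1 or 2. They were 1 and 2 without carfilzomib replicate 3 or NCP26 replicate 3. Among the lower was IRF1, a transcription factor of the interferon response, at 44.7, 40.3 and 40.6 CPM with NCP26 and 137, 137 and 131 CPM with carfilzomib (log2 fold change -1.72, SE 0.09, adjusted p = 7.38e-08).

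Of 8 tested plasma cell markers 6 were lower with NCP26 and 1 higher (median log2 fold change -0.44), where 21.8% and 20.2% of all tested genes were. The lower ones numbered 3 without carfilzomib replicate 3 and 4 without carfilzomib replicate 1 or NCP26 replicate 2. XBP1 (-0.32) and MZB1 (-0.41) were among the lower. Both calls were lost without carfilzomib replicate 1 or 3 (adjusted p 0.0509 to 0.0695). The call of MZB1 was also lost without NCP26 replicate 2 (adjusted p 0.0514) and with a GC correction (log2 fold change -0.23, adjusted p 0.101). With the replicate number as a block beside the GC correction, its adjusted p was 0.0791. The single higher marker was SDC1. SDC1, which encodes the myeloma marker CD138, was counted at 1642, 1828 and 1989 CPM with NCP26, 811.6, 811.6 and 811.5 CPM with carfilzomib and 3450.3, 3383 and 3012 CPM with DMSO (log2 fold change 1.14, SE 0.09, adjusted p = 2.41e-06). Both agents lowered it against DMSO, NCP26 by less (-0.88, SE 0.11) than carfilzomib (-2.02, SE 0.06), and the 3 groups did not overlap. IRF4, a transcription factor on which myeloma cells depend, went the other way, at 138, 157 and 143 CPM with NCP26, 337, 366 and 339.6 CPM with carfilzomib and 288, 303 and 334 CPM with DMSO (log2 fold change -1.28, SE 0.09, adjusted p = 5.12e-07), where NCP26 lowered it (-1.10, SE 0.10) and carfilzomib was not called (0.17, SE 0.07). POU2AF1, a coactivator of B lineage transcription (-1.02, SE 0.09), PRDM1, which encodes BLIMP1 (-0.75, SE 0.09), and MYC (-0.90, SE 0.08) were lower with NCP26. MYC was counted at 199, 202 and 192 CPM with NCP26, 364, 355 and 368 CPM with carfilzomib and 401, 409 and 421 CPM with DMSO, and the NCP26 libraries lay below all others.

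Of 19 tested transcription factors of plasma cells and myeloma, 6 were higher and 7 lower, where 20.2% and 21.8% of all tested genes were. Their median of -0.07 turned to 0.03 with a GC correction and to 0.02 without NCP26 replicate 2. For 1 of the 19 the NCP26 libraries alone all reached the filter's minimum level. IKZF1, which encodes Ikaros, was counted at 77.5, 91.96 and 91.6 CPM with NCP26, 50.03, 57.4 and 53.6 CPM with carfilzomib and 98.8, 103 and 104 CPM with DMSO (log2 fold change 0.67, SE 0.10, adjusted p = 0.000339), and only carfilzomib was called against DMSO (-0.93, SE 0.09, against -0.25, SE 0.10 with NCP26). IKZF3, which encodes Aiolos, read 28.9, 46.1 and 68.3 CPM with NCP26 and 20.2, 17.9 and 19.8 CPM with carfilzomib (log2 fold change 1.29, SE 0.25, adjusted p = 0.00153), with a wide spread among the NCP26 libraries. MEF2C, a B cell transcription factor (0.91, SE 0.09), and SPIB, an ETS factor of B cells (0.91, SE 0.27), were higher with NCP26, the call of SPIB being lost without carfilzomib replicate 2 or 3 (adjusted p 0.0719 and 0.0706). TCF3, MAX, MNT, MXI1, POU2F2 and BCL6 were not called, with log2 fold changes of -0.04, -0.07, -0.17, -0.09, 0.55 and 0.34. Of 18 surface antigens 7 were higher with NCP26 and 5 lower (median 0.09), where 20.2% and 21.8% of all tested genes were. The lower ones numbered 3 without NCP26 replicate 2. The median turned to -0.04 without the filter on low counts. TNFRSF17, which encodes BCMA, was lower at 130.3, 95.4 and 87.4 CPM with NCP26, 129, 146 and 153 CPM with carfilzomib and 147, 156 and 160.2 CPM with DMSO (log2 fold change -0.48, SE 0.14, adjusted p = 0.013), a call lost without carfilzomib replicate 3 (adjusted p 0.067), NCP26 replicate 2 (0.0509) or NCP26 replicate 3 (0.0582). CD38, the ectoenzyme targeted by therapeutic antibodies, was not called, at 48.6, 56.97 and 60.9 CPM with NCP26 and 34.8, 45.4 and 47.6 CPM with carfilzomib (log2 fold change 0.35, SE 0.14, adjusted p = 0.0521). FCRL5, an Fc receptor-like protein (0.76, SE 0.15), and IL6R, the interleukin 6 receptor (0.70, SE 0.14), were higher, and CD74, the invariant chain (-0.66, SE 0.09), and ITGB7, integrin beta 7 (-0.59, SE 0.09), were lower.

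Besides histone genes, the 12 genes with the largest positive fold changes held genes with no shared list. CALHM1, a calcium channel gene, was counted at 38.6, 46.1 and 44.2 CPM with NCP26, 9.93, 5.28 and 4.10 CPM with carfilzomib and 16.95, 19.97 and 15.5 CPM with DMSO (log2 fold change 2.74, SE 0.23, adjusted p = 2.75e-06), NCP26 being above DMSO and carfilzomib below. HVCN1, a proton channel of B cells (36.2, 32.5 and 36.1 CPM with NCP26 and 3.44, 9.15 and 7.88 CPM with carfilzomib; log2 fold change 2.30, SE 0.23), had every NCP26 library above every carfilzomib library. TRAF3IP3, an adaptor gene of lymphocytes (2.29, SE 0.19), CMTM3 (2.29, SE 0.30) and KRCC1 (2.29, SE 0.18) were of the same kind. CMTM3, EHHADH and WDR17 reached the filter's minimum level in all libraries with NCP26 only. ENSG00000182217, an identifier without a symbol in the reference tables, stood at 276, 229 and 235 CPM with NCP26 and 32.5, 36.3 and 31.2 CPM with carfilzomib (log2 fold change 2.86, SE 0.11, adjusted p = 2.61e-09). List members were matched by symbol, so whether this identifier belongs to a list, the histone list included, could not be told. RNF222, a RING finger gene, and EHHADH, which encodes an enzyme of peroxisomal fatty acid oxidation, belonged to the 38 genes that moved with OR1N1. RNF222 read 145, 26.01 and 182 CPM with NCP26, 18.7, 22.2 and 17.96 CPM with carfilzomib and 90.5, 18.3 and 17.6 CPM with DMSO (log2 fold change 2.56, SE 0.53, adjusted p = 0.0023), so that 1 NCP26 library lay near the carfilzomib libraries and 1 DMSO library lay far above its replicates. WDR17 was uneven too, at 22.7, 13.3 and 42.9 CPM with NCP26, 3.06, 4.93 and 8.19 CPM with carfilzomib and 22.1, 4.74 and 6.22 CPM with DMSO (log2 fold change 2.22, SE 0.44, adjusted p = 0.00164).

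The AMO1 libraries of 6 h with halofuginone and NCP22 give the levels of these genes under related agents at the same labelled dose. They are shown as a description for 5 genes chosen after their values were seen. The halofuginol libraries of the same time and labelled dose are not reported here. With halofuginone, a synthetase inhibitor that competes with proline, HSPA1B was counted at 67.5, 65.01 and 79.05 CPM, CDKN1A at 62.9, 64.7 and 53.8 CPM and HILPDA at 4.99, 4.78 and 6.08 CPM. H2BC11 stood at 141, 131 and 142 CPM and STC2 at 62.5, 72.7 and 58.3 CPM with halofuginone. With NCP22, the compound from which NCP26 was developed, the same 5 genes read 84.6, 92.4 and 78.2 CPM for HSPA1B, 359, 365 and 336 CPM for CDKN1A, 71.5, 79.2 and 72.6 CPM for HILPDA, 12.8, 16.7 and 16.3 CPM for H2BC11 and 10.7, 9.27 and 12.8 CPM for STC2. The halofuginone libraries lay on the NCP26 side of DMSO for all 5 genes, but all lay outside the range of the NCP26 libraries for HSPA1B, CDKN1A and STC2. In H2BC11 the halofuginone library at 131 CPM lay below that range, and in HILPDA all lay within it. The NCP22 libraries lay outside that range for each of the 5. They too were below every DMSO library in HSPA1B, CDKN1A and HILPDA and above every DMSO library in H2BC11, by smaller margins than NCP26. In STC2 they overlapped with DMSO.

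The direct contrast also followed properties of the transcripts. Over 10441 tested genes with a GENCODE transcript (98.6%), the log2 fold change correlated with GC content at a Pearson r of -0.24 (Spearman rho -0.30), as a description across genes of the same libraries. The median GC content was 42.9% in genes higher with NCP26, 52.9% in genes lower with NCP26 and 47.9% in all. Median transcript lengths were 4431, 2708 and 3363 nt in the same order (r 0.196). Proline codons made up 5.10%, 5.65% and 5.40% of the coding sequence at the median (r -0.065). With GC content corrected for in the fit, 4108 genes were called.

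Whether the difference between the agents at 6 h held at 24 h was tested as an interaction over 12 libraries. By their sample numbers, the 24 h libraries came from 2 sample-sheet sets, with carfilzomib replicate 1 in the set of the 6 h libraries and the others in another. Lysates of 6 h were frozen and those of 24 h kept on ice before extraction. Set, storage and time can therefore not be told apart for the NCP26 libraries. The difference changed for 2637 of 11090 tested genes (23.8%), becoming more positive (NCP26 minus carfilzomib) for 1279 (11.5%) and more negative for 1358 (12.2%). Without carfilzomib 24 h replicate 2, 3403 genes were called. Of the 196 genes named by rule at 6 h, 101 were called, 76 with a change opposite in sign to their 6 h difference and 25 with the same sign. Most of these genes were named for large 6 h differences, and the interaction uses the same 6 h libraries. Opposite signs were therefore favoured in advance, and the split between signs is a description only.

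The agents lay closer together in heat shock genes at 24 h. The difference became more positive for 20 of 29 tested heat shock genes and more negative for 0 (median 1.11 on the log2 scale). Over all tested genes these shares were 11.5% and 12.2%, the background for each list in this paragraph. DNAJB1 had mean levels of 49.1 CPM with NCP26 and 3482 CPM with carfilzomib at 6 h, against 46.4 and 573 CPM at 24 h, on the scale of these 12 libraries. In targets of ATF4 the difference became more positive for 27 of 38 and more negative for 3 (median 1.17). With NCP26 and carfilzomib, TRIB3 averaged 311 and 315 CPM at 6 h and 381 and 94.2 CPM at 24 h. ASNS averaged 253 and 228 CPM at 6 h and 230.3 and 83.1 CPM at 24 h. Both genes fell with carfilzomib, while with NCP26 TRIB3 rose and ASNS fell slightly. The DMSO libraries of 24 h were not compared. Targets of p53 turned, with 19 of 23 more positive and 1 more negative (median 1.52). CDKN1A was counted at 68.1, 70.7 and 69.5 CPM with NCP26 and 757, 682 and 750.0 CPM with carfilzomib at 6 h, and 313, 286 and 298 and 134, 136 and 149 CPM at 24 h (log2 difference 4.49, SE 0.13, adjusted p = 9.58e-11). The difference in G2/M genes became more negative for 30 of 32 and more positive for 0 (median -1.30), and in G1/S genes for 21 of 36 (median -0.72). MKI67, a proliferation marker named here after its values were seen, averaged 192 and 176 CPM at 6 h and 94.8 and 416 CPM at 24 h. Histone genes moved in the same direction in 7 of 13 (median -0.81).

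Among the 5 largest changes in each direction, HMOX1 was counted at 8.27, 12.3 and 10.5 CPM with NCP26 and 341, 362 and 388 CPM with carfilzomib at 6 h, and 115, 119.6 and 104 and 117, 95.8 and 118 CPM at 24 h (log2 difference 5.15, SE 0.19, adjusted p = 9.56e-10), so that the groups were far apart at 6 h and overlapped at 24 h. BCAT1, a branched-chain aminotransferase (3.98, SE 0.37), and WARS1 (3.64, SE 0.14) were more positive as well. All 5 of the most negative changes, in RNF222, the neuronal transcription factor gene FEZF2, OR1N1, the potassium channel gene KCNK2 and the scavenger receptor gene SCARF2, fell on genes that moved with OR1N1. OR1N1 stood at 499, 68.2 and 669 CPM with NCP26 and 76.7, 75.8 and 95.2 CPM with carfilzomib at 6 h, and 122, 93.3 and 153 and 161, 2335 and 191 CPM at 24 h, where 1 carfilzomib library of 24 h lay far above its replicates.

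**Figure D4:**
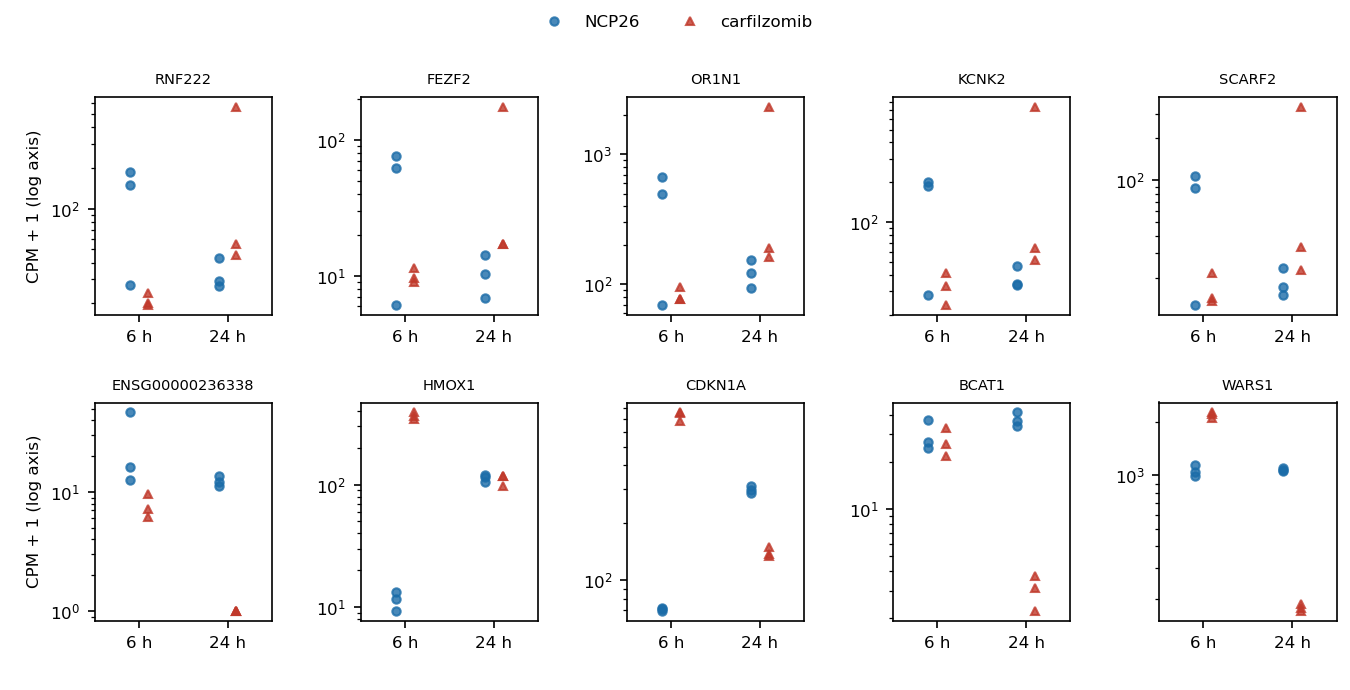
Points give CPM + 1, on a log axis, of each library with NCP26 (circles) and carfilzomib (triangles) at 6 h and 24 h for the 10 genes with the largest change of the difference between the times. CDKN1A changes order between the times, HMOX1 is far apart at 6 h and overlaps at 24 h, and in RNF222, FEZF2, OR1N1, KCNK2 and SCARF2 single libraries lie far above their replicates.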

How the data were processed

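RNA of AMO1 cells was sequenced by the authors from poly(A)-selected directional libraries and assigned to transcripts with kallisto by 31-base words. The deposited counts are whole numbers for 20167 genes without normalization. The kallisto version is not given in the sources used here, and the study's methods and the submitters' processing notes name different genome builds. The authors tested with DESeq2. Here the 2 groups of a comparison were fitted in edgeR 4.0.16 (R 4.3.3) with filterByExpr (minimum count 10, minimum total 15), TMM, the quasi-likelihood test and adjustment after Benjamini and Hochberg over the genes tested (threshold 0.05). A standard error is the size of the fold change on the log2 scale over the root of its F value. The interaction used 12 libraries. Named genes were the 12 with the largest difference in each direction (called, mean of at least 10 CPM, no overlap of groups), up to 4 called members per list and direction, EPRS1, PSMB5, plasma cell markers, and the 5 largest interactions in each direction; others are said to be chosen after their values were seen. A few named genes are not reported here. Members and lists were chosen with earlier results of these data known. GENCODE v44 gave names, GC content and length for 19299 genes, and RefSeq GRCh38.p14 the promoters. Alternatives were the size factors of DESeq2 1.42.0, its Wald test, no count filter, the replicate number as a block, a GC offset (lowess span 0.3), all 6 groups in one fit and leaving out each library. Depth was 2500293 to 3790298 counts per library, so genes of a few CPM rest on few reads. Scripts used Python 3.11.15, pandas 2.3.3, numpy 2.4.6 and matplotlib 3.10.9, and were tested on simulated data.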

Additional observations from a re-analysis of the deposited data

Results flagged for a closer look

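The difference between NCP26 and carfilzomib was tested for a change between 6 h and 24 h in edgeR's quasi-likelihood test of the interaction, and 2637 of 11090 genes were called. The 5 genes with the largest positive change were ENSG00000236338 (6.22 on the log2 scale, SE 1.85), HMOX1 (5.15, SE 0.19), CDKN1A (4.49, SE 0.13), BCAT1 (3.98, SE 0.37) and WARS1 (3.64, SE 0.14). ENSG00000236338, without a symbol in the reference tables, had a count of 0 in all 3 carfilzomib libraries of 24 h, so its fitted value depends on the prior count, and its call was lost when any of 4 libraries was left out (adjusted p 0.051 to 0.0645). The 5 genes with the largest negative change were RNF222 (-5.35, SE 1.24), FEZF2 (-5.21, SE 1.37), OR1N1 (-5.18, SE 1.27), KCNK2 (-5.04, SE 1.27) and SCARF2 (-4.98, SE 1.32). All 5 belong to the 38 genes that moved with OR1N1 between replicates. Without carfilzomib 24 h replicate 2 their values were -3.17, -3.11, -2.82, -2.70 and -2.69 in the same order. The summed CPM of the 38 genes in the carfilzomib libraries of 24 h was 1890, 18214 and 2239, and in those of NCP26 it was 1350 to 1977. Their part in these changes was not tested further.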

How the results depend on the processing

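The call count of NCP26 against carfilzomib at 6 h was 4444, and it was 4425 with the size factors of DESeq2, 3316 with its Wald test, 4682 without the count filter, 4108 with a GC offset, 5161 with all groups in one fit and 3276 to 4952 when 1 library was left out. The same ranges over left-out libraries were 2755 to 4376 for NCP26 against DMSO, 2208 to 2926 for carfilzomib against DMSO and 1957 to 3403 for the interaction. The replicate numbers were not taken as pairs. Deviations of NCP26 and carfilzomib libraries with the same number correlated at 0.005, 0.118 and 0.047, and those with different numbers at -0.120 to 0.068. The deviations were taken from means of groups of 3, so these correlations depend on one another and cannot decide whether the numbers are pairs. A fit with the replicate number as a block called 4414, 3812, 2521 and 2550 genes in these comparisons, or 3963 for the direct contrast with block and GC offset together. Leaving out the 38 genes that moved with OR1N1, an alternative chosen after seeing the data, gave 4409 calls in the direct contrast and 2601 in the interaction. The genes lower with carfilzomib than with DMSO numbered 1345, and 832 with the Wald test. Of the 196 named genes 25 lost their call under at least 1 alternative. Changes of sign fell on uncalled genes: TCF3 read 0.156 with the GC offset with or without the block, MNT 0.0283 with the GC offset and 0.0243 with block and GC offset, and EPRS1 -0.0798 and -0.0823. When 1 library was left out, MAX ran from -0.115 to 0.0136, MNT from -0.484 to 0.0217, BCL6 from -0.024 to 0.576 and EPRS1 from -0.0084 to 0.116. The cause was not tested. Depth limits genes of low count, and the labels of the 3 replicates give no day or culture.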
